A study of Mus musculus with 6 samples.

Results

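The genes described here serve protein folding, quality control and disposal in the endoplasmic reticulum (ER), and they were chosen by name from knowledge of that pathway. The choice was made with earlier results of these data known, though no value is part of the rule. The list holds 40 genes, and in the whole series 20788 genes were listed in at least 1 library. The 40 are 8 genes of the ER HSP70 and HSP90 chaperones and their partners, 9 lectin chaperones, disulfide isomerases and oxidases, 6 stress sensors, factors and regulators, 12 genes of ER-associated degradation (ERAD), and 5 genes of the translocon. Under the listed symbol 37 were found, and Selk and Vimp under their later symbols Selenok and Selenos. Derl3 was not listed in any library, where 3 fragments would have given 0.103 to 0.118 FPKM, so 39 were tested. RNA sequencing compared Tyr-H cells, which the labels give a high tyrosinase activity, with Tyr-L cells, which have a low one, in 3 libraries each. Both are subclones of B16, a mouse melanoma line of C57BL/6 origin, grown in low-glucose DMEM with serum and antibiotics, and no drug or other treatment is named for either. Whether libraries of one kind are separate cultures or separate subclones is not in the labels, so p-values measure only the spread between these libraries. Values are FPKM, fragments scaled by transcript length and by the mapped fragments of the library, so levels can be set side by side between genes.

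Secreted and membrane proteins enter the ER through the translocon and are folded there by BiP and its cochaperones, by lectins that hold N-glycosylated proteins and by disulfide isomerases. Proteins that fail to fold are returned to the cytosol by ERAD and degraded by the proteasome. When unfolded proteins build up, the sensors IRE1, ATF6 and PERK start the unfolded protein response: IRE1 splices Xbp1 mRNA and ATF6 is cut in the Golgi, and both factors raise chaperone and ERAD genes, while PERK acts through ATF4 and CHOP, an arm that amino acid shortage reaches through GCN2 without the ER. Melanocytes also make tyrosinase, a glycoprotein that folds in the ER with the help of calnexin.

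The deposited values gave an estimated 19200000 to 22100000 fragments per library, and the tested members all lay far above the detection limit, the lowest being Ero1lb with an estimated 176 fragments in its lowest library. Tyr, which encodes tyrosinase, was read first as a check of the labels. Its level was 10.7, 9.52 and 9.80 FPKM in Tyr-L cells and 23.8, 20.6 and 19.7 FPKM in Tyr-H cells, with no overlap (log2 fold change 1.08 ± 0.08 SE, adjusted p = 4.0e-06, limma). All 8 melanocyte markers were detected and, apart from Tyr, 7 were lower in Tyr-H cells, Mitf most (log2 fold change −1.85), the falls of Tyrp1 and Mlana being lost with median ratio scaling. The markers had a summed level of 7344 to 7661 FPKM among Tyr-L libraries and 5438 to 5958 FPKM among Tyr-H libraries. Of 7 leukocyte markers, Ptprc, Cd3e, Itgam, Adgre1 and Csf1r were not listed in any library and the others, mostly Cd68, summed to 3.19 to 4.51 FPKM. The 7 stromal and keratinocyte markers summed to 0.579 to 1.04 FPKM, the higher values being those of Tyr-H. Of the 2 that could be tested, Col1a1 was higher in Tyr-H (log2 fold change 0.71, adjusted p = 0.017) at 0.296 to 0.708 FPKM. The part that the cells behind these markers have in the results below was not tested. In bulk RNA, fewer cells of a kind and less RNA per cell cannot be told apart. Over all 14336 genes tested, the median log2 fold change (Tyr-H minus Tyr-L) was −0.15, so a member at −0.15 moved with the bulk of the genes.

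A small set of the genes rose strongly, 5 of the 6 sensors, factors and regulators rose, and the abundant genes included Hspa5, which rose, and Hsp90b1 and Pdia3, which fell. Ero1l, Herpud1, Wfs1, Dnajb9 and Atf6 rose by at least 2-fold at an adjusted p of at most 0.05 (limma on log2(FPKM + 0.1)), which is 5 of the 39 members where 2.96% of all tested genes did so. No member fell by 2-fold, where 5.78% of all tested genes did. By adjusted p alone, the criterion behind "rose" and "fell" below, 17 members rose, 10 fell and 12 did not pass, beside 17.9% of all genes higher and 39.9% lower. In 16 members every Tyr-H library lay above every Tyr-L library, as in 20.2% of all tested genes, and in 11 every Tyr-H library lay below, as in 43.8%. With 3 libraries against 3, the exact permutation test, two-sided, cannot give a p under 0.1, and every gene with no overlap has that value. The median log2 fold change of the members was 0.09, or 0.24 above that of all genes, and the changes ran from −0.46 to 1.91. The call was the same in all 15 alternative ways of processing for 15 of the risen and 6 of the fallen genes. The risen ones were Hspa5, Hyou1, Dnajb9, Sdf2l1, Ero1l, Ero1lb, Ern1, Atf6, Xbp1, Wfs1, Crebrf, Herpud1, Sel1l, Derl1 and Sec61a1, and the fallen ones Hsp90b1, Pdia3, Edem2, Edem3, Sec61b and Ssr1. The split of higher and lower members depended on how the libraries were scaled: it was 17 and 10 as deposited, 21 and 6 with median ratio scaling, 18 and 10 with quantile normalization and 15 and 14 with every library set to the same total.

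**Figure D1:**
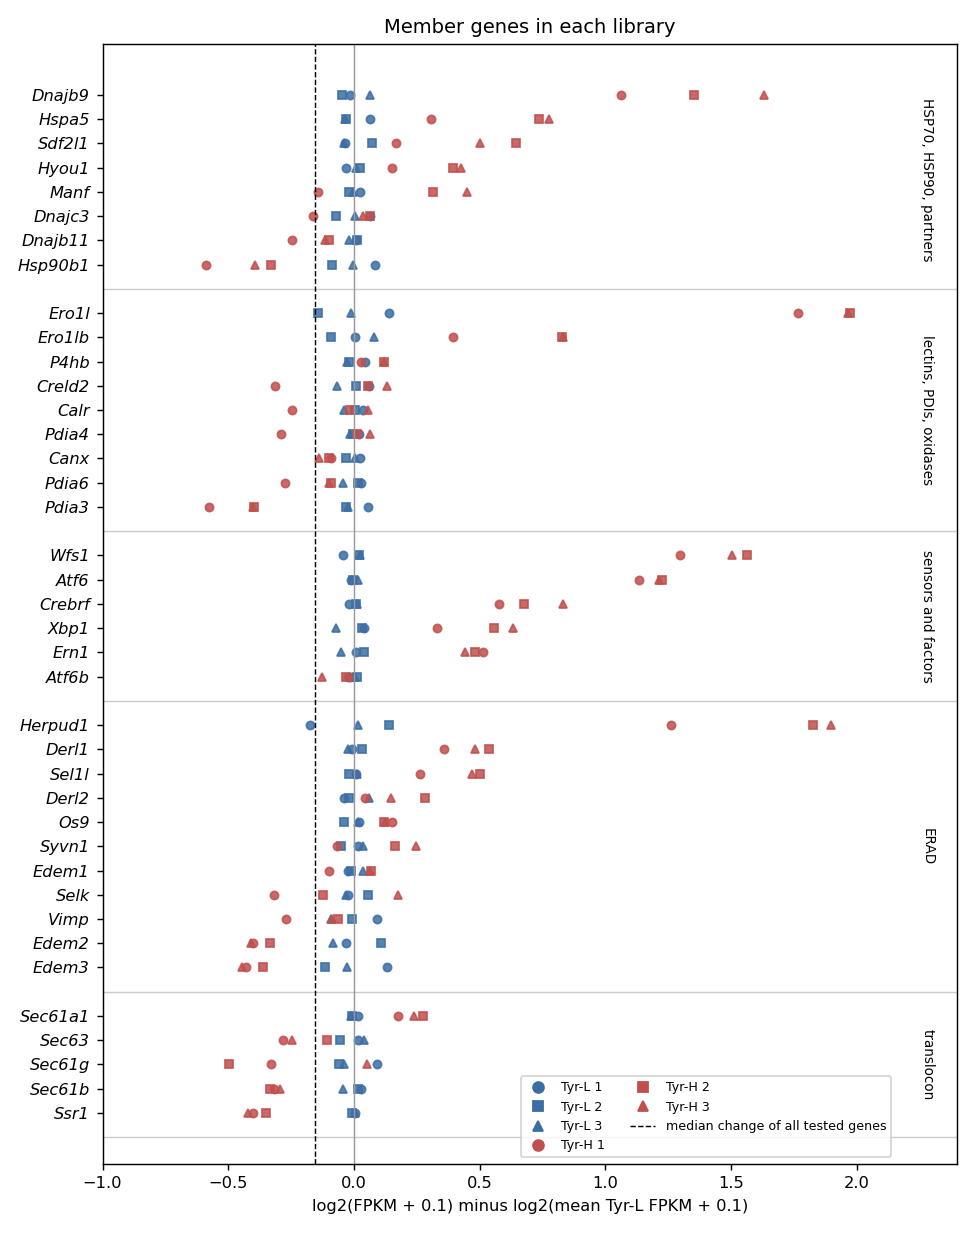
Level of the 39 tested members in each of the 6 libraries, as log2(FPKM + 0.1) minus the log2 of the Tyr-L mean, grouped by role. Blue points are Tyr-L and red points Tyr-H libraries, shapes mark replicates, and the dashed line is the median change of all tested genes (−0.15). The 5 genes with 2-fold rises stand apart on the right, and the circle of Tyr-H library 1 is the lowest of the red points in 30 of the 39 genes.

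ER stress genes are known for short promoter elements, and the members differed in which of them they carry. The RefSeq windows of GRCm38.p6, from 250 bases before to 50 bases after the start, were searched on both strands and exist for 35 of the 40 members, not for Atf6, Derl1, Hyou1, Manf and Sec61a1. The ER stress response element (ERSE), CCAAT and CCACG with 9 bases between them, is bound by NF-Y together with ATF6 or XBP1. It was present in 10 members, Calr, Canx, Creld2, Derl3, Dnajc3, Ero1lb, Hsp90b1, Hspa5, Pdia6 and Syvn1, and in 0.119% of all 32851 windows. ERSE-II, ATTGG and CCACG with 1 base between them, was present in Herpud1 and Dnajb11 and in 0.0365% of all windows, and no member held both kinds. The UPRE core TGACGTGG, whose other strand holds the CCACG of the ERSE, was in no member's window and in 0.676% of all. The C/EBP-ATF element TGATGNAA, to which CHOP and ATF4 can bind, was in Herpud1 alone among the members and in 3.97% of all windows. Only exact matches were counted, so an element with other letters would be missed. A match describes the letters of a window and is not a bound site.

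The elements are shown for the members with a window match whose levels are given below, 5′ to 3′ on the strand of the gene, with the element in capitals and with 20 bases on each side (5 for Hspa5 and Dnajb11). Where the element lies on the other strand it reads CGTGG first and ATTGG last.
Hspa5, ERSE at chr2:34772020-34772048, plus strand: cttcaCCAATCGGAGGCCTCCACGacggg
Hsp90b1, first ERSE at chr10:86705618-86705676, minus strand: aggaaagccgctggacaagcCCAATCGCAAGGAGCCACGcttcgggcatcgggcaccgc
Hsp90b1, second ERSE at chr10:86705513-86705571, minus strand: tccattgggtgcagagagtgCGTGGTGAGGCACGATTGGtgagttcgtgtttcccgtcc
Calr, ERSE at chr8:84847055-84847113, minus strand: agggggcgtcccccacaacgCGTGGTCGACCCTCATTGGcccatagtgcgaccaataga
Canx, ERSE at chr11:50325780-50325838, minus strand: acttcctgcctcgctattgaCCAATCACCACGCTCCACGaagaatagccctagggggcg
Pdia6, ERSE at chr12:17266471-17266529, plus strand: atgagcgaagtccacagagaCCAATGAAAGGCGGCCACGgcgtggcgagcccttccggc
Creld2, ERSE at chr15:88819500-88819558, plus strand: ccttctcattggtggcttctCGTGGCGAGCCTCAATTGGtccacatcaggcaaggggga
Dnajc3, ERSE at chr14:118937807-118937865, plus strand: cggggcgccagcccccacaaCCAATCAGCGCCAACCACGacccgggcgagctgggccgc
Ero1lb, ERSE at chr13:12565662-12565720, plus strand: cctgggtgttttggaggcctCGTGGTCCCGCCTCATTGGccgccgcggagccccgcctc
Syvn1, ERSE at chr19:6046512-6046570, plus strand: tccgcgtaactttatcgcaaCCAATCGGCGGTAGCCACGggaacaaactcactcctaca
Dnajb11, ERSE-II at chr16:22857847-22857867, plus strand: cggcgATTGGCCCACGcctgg
Herpud1, ERSE-II at chr8:94386357-94386407, plus strand: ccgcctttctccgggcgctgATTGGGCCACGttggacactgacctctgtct
Herpud1, C/EBP-ATF element at chr8:94386297-94386344, plus strand: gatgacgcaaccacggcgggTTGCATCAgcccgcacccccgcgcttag

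Of the 9 tested members with an ERSE, 2 rose (Hspa5 and Ero1lb), 3 fell (Hsp90b1, Canx and Pdia6) and 4 did not pass, with a median log2 fold change of −0.04 and none called at 2-fold. The 23 tested members with a window but neither ERSE nor ERSE-II held 10 that rose, 6 that fell and 7 that did not pass, with a median of 0.01. Herpud1, with both an ERSE-II and the C/EBP-ATF element, changed most among the members with a matched element, by 1.67, whereas Dnajb11, with an ERSE-II that begins 8 bases into the transcript, stood at −0.15. Over all tested genes 17.9% rose and 39.9% fell, so the counts of the 9 members with an ERSE lay near the shares over all genes. These counts are descriptions and were not tested against each other.

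The ER HSP70 and HSP90 group rose at BiP and several of its partners and fell at GRP94. Of the 8 genes, 4 rose, 2 fell and 2 did not pass, with a median log2 fold change of 0.27. Hspa5, which encodes BiP, the ER HSP70 that binds unfolded chains and holds the sensors inactive (chromosome 2, 34771970 to 34777547), stood at 348, 325 and 325 FPKM in Tyr-L and at 411, 555 and 569 FPKM in Tyr-H. All Tyr-H libraries were above all Tyr-L libraries, and library 1 was the lowest of them. The means were 333 ± 13.3 and 512 ± 87.4 FPKM (SD, n = 3 each). The log2 fold change was 0.61 ± 0.11 (SE), with an adjusted p of 9.4e-04 in limma. Without Tyr-H library 1 the log2 fold change was 0.76.

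Hsp90b1, which encodes GRP94, the ER HSP90 (chromosome 10, 86690209 to 86705509), went the other way. It stood at 378, 336 and 356 FPKM in Tyr-L and at 237, 284 and 271 FPKM in Tyr-H, with every Tyr-H library below every Tyr-L library. It fell by 0.44 on the log2 scale (SE 0.07, adjusted p = 4.1e-04, limma). Hspa5 and Hsp90b1 thus changed places: BiP was the less abundant of the pair in every Tyr-L library and the more abundant in every Tyr-H library. In Tyr-L library 2 the pair lay close, with Hspa5 at 325 and Hsp90b1 at 336 FPKM. The window of Hspa5 held 1 exact ERSE match and that of Hsp90b1 held 2. Hsp90b1 shares 7.02% of its 75-base words with 1810014B01Rik and Gm15344, which overlap it.

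The J-domain cochaperones, which hand clients to BiP and start its ATPase, did not move together. Dnajb9, which encodes ERdj4 (chromosome 12, 44205559 to 44210326), stood at 10.1, 9.87 and 10.7 FPKM in Tyr-L and at 21.4, 26.2 and 31.8 FPKM in Tyr-H. The groups were far apart, and the log2 fold change was 1.35 ± 0.12 (SE, adjusted p = 1.4e-05, limma). Dnajb9 shares 2.72% of its 75-base words with Gm6568. Dnajb11, which encodes ERdj3, fell from 99.5 ± 1.17 to 89.5 ± 4.89 FPKM (mean ± SD over 3 libraries each), a log2 change of −0.15 that equals the median of all genes and was 0.001 with median ratio scaling, its call being lost with no variance trend too. Dnajc3, which encodes p58IPK, was at 32.03 ± 1.53 and 31.6 ± 2.66 FPKM (adjusted p = 0.80).

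The remaining partners of BiP were Hyou1, Sdf2l1 and Manf. Hyou1, an HSP70-like exchange factor for BiP, stood at 66.3, 69.0 and 68.2 FPKM in Tyr-L and at 75.3, 89.3 and 91.3 FPKM in Tyr-H, and rose by a log2 fold change of 0.32 (SE 0.07, adjusted p = 0.0023). Sdf2l1, which works with ERdj3 and BiP, stood at 42.9, 46.3 and 42.9 FPKM in Tyr-L and at 49.5, 68.9 and 62.4 FPKM in Tyr-H (log2 fold change 0.44, SE 0.10, adjusted p = 0.0048). Both had all Tyr-H libraries above Tyr-L, with library 1 the closest to the Tyr-L range. Manf, a small BiP-binding protein that is also secreted, stood at 92.0, 89.2 and 90.4 FPKM in Tyr-L and at 82.0, 112 and 124 FPKM in Tyr-H. Here library 1 lay below the whole Tyr-L range and the other Tyr-H libraries above it, and the test was not passed (log2 fold change 0.21, adjusted p = 0.18). Without Tyr-H library 1 it was 0.38 with an adjusted p of 2.4e-04, and without Tyr-H library 3 it was 0.085 with an adjusted p of 0.53. With median ratio scaling Manf passed at 0.36 (adjusted p = 0.027). Manf shares 4.23% of its 75-base words with 4930524O07Rik, and its locus overlaps Rbm15b on the same strand and Dcaf1, 4930524O07Rik and Gm37612 on the other.

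**Figure D2:**
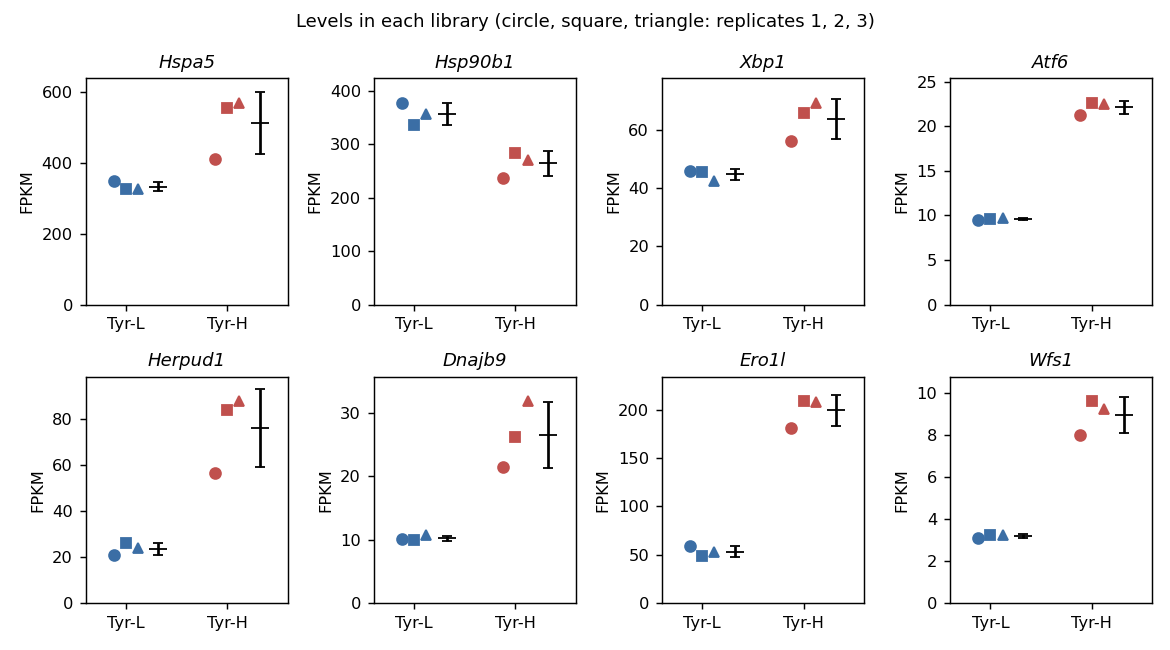
FPKM of 8 members in each library, on linear axes from 0, with blue for Tyr-L and red for Tyr-H. Black marks beside each group are the mean and SD of 3 libraries. Hspa5 rose (means 333 and 512 FPKM) while Hsp90b1 fell (357 and 264 FPKM), and Ero1l rose from a mean of 53.1 to 199 FPKM.

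Of the 9 lectin chaperones, disulfide isomerases and oxidases 2 rose, 3 fell and 4 did not pass, with a median log2 fold change of −0.07. Over all tested genes 17.9% rose and 39.9% fell, so falls were about as frequent here as over all genes. Both ER oxidases rose, and among the abundant lectins and isomerases 3 fell and none rose. Calr, which encodes calreticulin, a soluble lectin and calcium store, stood at 392, 383 and 372 FPKM in Tyr-L and at 322, 378 and 398 FPKM in Tyr-H. The groups overlapped (log2 fold change −0.07, adjusted p = 0.42). A fall was called with quantile normalization (−0.20, adjusted p = 0.013) and with a set total (−0.16, adjusted p = 0.029), while the value was 0.09 with median ratio scaling. Canx, which encodes calnexin, the membrane-bound lectin, fell from 358 ± 6.85 to 332 ± 6.16 FPKM (mean ± SD over 3 libraries each), a log2 change of −0.11 that was less negative than the median of all genes and was 0.05, above zero, with median ratio scaling. Its call was also lost with no variance trend, with the replicate number as a block, and without Tyr-L library 1 or Tyr-L library 3.

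Pdia3, which encodes ERp57, the isomerase that works with both lectins (chromosome 2, 121413775 to 121438687), had the largest fall among the members in the values as deposited. It went from 289 ± 9.83 to 211 ± 14.6 FPKM (SD, n = 3 each), with no overlap (log2 fold change −0.46, SE 0.05, adjusted p = 6.1e-05). Pdia6, which encodes P5, fell from 215 ± 5.62 to 193 ± 13.5 FPKM (log2 fold change −0.15, adjusted p = 0.026), and this call was lost with median ratio scaling, with no filter on low values, with no variance trend, and without Tyr-L library 1, Tyr-L library 2 or Tyr-H library 1. Pdia4, which encodes ERp72, stood at 196, 192 and 191 FPKM in Tyr-L and at 158, 195 and 202 FPKM in Tyr-H, with library 1 alone below the Tyr-L range (log2 fold change −0.07, adjusted p = 0.47). P4hb, the classical protein disulfide isomerase, was at 262 ± 7.11 and 279 ± 10.2 FPKM (log2 fold change 0.09, adjusted p = 0.068), a difference that passed the test with median ratio scaling and without Tyr-H library 1. Creld2, an ER protein with isomerase-like motifs, stood at 37.1, 35.8 and 34.0 FPKM in Tyr-L and at 28.7, 37.0 and 39.0 FPKM in Tyr-H, again with library 1 alone below the Tyr-L range (log2 fold change −0.04, adjusted p = 0.74). Pdia3 overlaps Catsper2 and Pdia6 overlaps Atp6v1c2, both on the other strand.

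The oxidase Ero1l, which encodes ERO1 alpha and re-oxidizes disulfide isomerase at the cost of hydrogen peroxide, changed most of all members (chromosome 14, 45283087 to 45318771). It stood at 58.6, 48.1 and 52.7 FPKM in Tyr-L and at 181, 209 and 208 FPKM in Tyr-H. The groups lay far apart, with means of 53.1 ± 5.29 and 199 ± 15.9 FPKM (SD over 3 libraries) and a log2 fold change of 1.91 ± 0.08 (SE, adjusted p = 2.5e-07, limma). Its paralog Ero1lb, ERO1 beta, rose from 2.14 ± 0.13 to 3.54 ± 0.60 FPKM (log2 fold change 0.69, SE 0.14, adjusted p = 0.0020). Ero1lb shares 12.2% of its 75-base words with Gm18562, so its value is less certain, while no word of Ero1l was shared. None of the isomerases on which these oxidases act rose in the values as deposited.

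The sensors, factors and regulators held the largest share of risen genes among the 5 groups, with 5 of 6 risen, none fallen and a median log2 fold change of 0.60. Atf6, the membrane-bound factor that is cut in the Golgi to reach the nucleus (chromosome 1, 170704674 to 170867771), stood at 9.54, 9.61 and 9.75 FPKM in Tyr-L and at 21.2, 22.7 and 22.5 FPKM in Tyr-H. The libraries within each group were close to each other and the groups far apart (log2 fold change 1.19 ± 0.05 SE, adjusted p = 2.4e-07). Its paralog Atf6b was at 30.3 ± 0.32 and 29.1 ± 1.16 FPKM (SD, n = 3 each), with an adjusted p of 0.24, and passed as a fall with a set total (−0.15, adjusted p = 0.028), while its value was 0.09 with median ratio scaling. Atf6b was thus the more abundant of the pair in all 6 libraries.

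Ern1, which encodes IRE1 alpha, the kinase and nuclease that splices Xbp1 mRNA, stood at 6.35, 6.49 and 6.08 FPKM in Tyr-L and at 9.04, 8.84 and 8.60 FPKM in Tyr-H. It rose by a log2 fold change of 0.48 ± 0.06 (SE, adjusted p = 1.3e-04), and its Tyr-H library 1 was the highest of that group. Xbp1 (chromosome 11, 5520659 to 5525893) stood at 46.0, 45.7 and 42.6 FPKM in Tyr-L and at 56.3, 65.9 and 69.4 FPKM in Tyr-H, with a log2 fold change of 0.51 ± 0.07 (SE, adjusted p = 2.5e-04). A gene-level FPKM counts spliced and unspliced Xbp1 mRNA together, so splicing cannot be read from it.

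Wfs1, which encodes wolframin, an ER membrane protein of calcium balance and ATF6 turnover (chromosome 5, 36966104 to 36989205), stood at 3.09, 3.23 and 3.25 FPKM in Tyr-L and at 7.99, 9.61 and 9.23 FPKM in Tyr-H. It rose by a log2 fold change of 1.46 ± 0.09 (SE, adjusted p = 1.5e-06). Crebrf, a regulator of the ER-bound factor CREB3, was the least abundant tested member in Tyr-L and rose from 1.57 ± 0.02 to 2.62 ± 0.25 FPKM (n = 3 each, with the SD, log2 fold change 0.69, adjusted p = 6.5e-04).

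In ERAD, Herpud1, Sel1l, Derl1, Derl2 and Os9 rose and Edem2 and Edem3 fell. Of the 11 tested genes, 5 rose, 2 fell and 4 did not pass, with a median log2 fold change of 0.11. Herpud1, which encodes HERP, a short-lived membrane protein that organizes the HRD1 complex (chromosome 8, 94386438 to 94395377), stood at 20.9, 26.0 and 23.8 FPKM in Tyr-L and at 56.5, 83.8 and 87.9 FPKM in Tyr-H. All Tyr-H libraries were at more than 2 times the highest Tyr-L library, library 1 being the lowest of them (log2 fold change 1.67 ± 0.15 SE, adjusted p = 1.7e-05). Leaving out each library in turn gave 1.55 to 1.87. Gm15890 lies over Herpud1 on the other strand.

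Around HRD1, Sel1l, the adaptor that steadies the ligase, rose from 25.6 ± 0.33 to 34.2 ± 2.98 FPKM (n = 3 each, with the SD, log2 fold change 0.41, adjusted p = 3.3e-04). Syvn1, the HRD1 ligase itself, was at 15.6 ± 0.50 and 17.0 ± 1.89 FPKM, with library 1 below the Tyr-L range (log2 fold change 0.11, adjusted p = 0.23). Without that library its log2 fold change was 0.21 with an adjusted p of 0.014, and without Tyr-H library 3 it was 0.048 with an adjusted p of 0.61. It passed with median ratio scaling (0.27, adjusted p = 0.012) and with quantile normalization (0.25, adjusted p = 0.016). Derl1, a rhomboid-like protein of the exit channel, rose from 56.8 ± 1.21 to 78.2 ± 4.89 FPKM (log2 fold change 0.46, adjusted p = 3.5e-05). Derl2 rose from 26.4 ± 0.96 to 29.5 ± 2.44 FPKM (log2 fold change 0.16, adjusted p = 0.049), with overlapping groups and a call lost in 9 of the 15 alternatives, among them the removal of any library other than Tyr-H library 1. Os9, the lectin that brings glycoproteins to SEL1L, rose from 16.6 ± 0.38 to 18.2 ± 0.24 FPKM (log2 fold change 0.13, adjusted p = 0.024), a call lost when all libraries were set to the same total, with the replicate number as a block, and without Tyr-L library 2 or Tyr-H library 1. Derl1 shares 4.16% of its 75-base words with Gm35638, and Syvn1 shares 0.399% with Mrpl49.

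The EDEM proteins trim mannose from glycoproteins that fail to fold. Edem1 was at 49.5 ± 1.05 and 49.99 ± 3.22 FPKM (SD, n = 3 each, adjusted p = 0.85), and passed as a rise with median ratio scaling (0.17, adjusted p = 0.014). Edem2 fell from 20.2 ± 1.39 to 15.5 ± 0.46 FPKM (log2 fold change −0.38, adjusted p = 3.7e-04) and Edem3 fell from 19.96 ± 1.73 to 15.0 ± 0.48 FPKM (log2 fold change −0.41, adjusted p = 5.0e-04), both with no overlap. The selenoproteins Selk and Vimp, which help to bring the p97 ATPase to the ER membrane, were at 16.7 ± 0.56 and 15.9 ± 2.78 FPKM and at 63.4 ± 4.04 and 57.6 ± 4.39 FPKM (adjusted p = 0.50 and 0.087). A fall was called for Selk without Tyr-H library 3 (−0.22, adjusted p = 0.026) and for Vimp with a set total (−0.23, adjusted p = 0.0044), and both values were above zero with median ratio scaling. Selk shares 10.3% of its 75-base words with Gm48228, Selenok-ps1 and Selenok-ps8. Derl3, the member that was not listed, lies at chromosome 10, 75893413 to 75895941, and its window holds an ERSE.

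In the translocon, the channel subunit rose and 3 of its partners fell, where 39.9% of all tested genes fell. Sec61a1, the channel, rose from 156 ± 1.57 to 183 ± 6.19 FPKM (n = 3 each, with the SD, log2 fold change 0.23, adjusted p = 3.3e-04). The small subunit Sec61b fell from 156 ± 4.03 to 125 ± 1.67 FPKM (log2 fold change −0.32, adjusted p = 3.4e-05), so that 2 subunits with near-equal levels in Tyr-L cells stood apart in Tyr-H cells. Ssr1, a subunit of the translocon-associated TRAP complex, fell from 36.5 ± 0.17 to 27.9 ± 0.73 FPKM (log2 fold change −0.39, adjusted p = 2.1e-05). Sec63, the J-domain partner of BiP at the channel, fell from 21.8 ± 0.76 to 18.8 ± 1.24 FPKM (log2 fold change −0.21, adjusted p = 0.0096), a call lost with median ratio scaling and with quantile normalization. Sec61g was at 57.1 ± 3.29 and 48.4 ± 9.71 FPKM with overlapping groups (log2 fold change −0.26, adjusted p = 0.085), and the value rested on single libraries. It was −0.41 with an adjusted p of 7.3e-04 without Tyr-H library 3 and −0.14 without Tyr-H library 2, and a fall was called with every library set to the same total (−0.35, adjusted p = 0.011). Shared 75-base words make these genes uncertain: 19.4% of Sec61g, 13.1% of Sec61a1, 5.86% of Sec61b and 1.68% of Sec63, against none of Ssr1.

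The sum over the 39 members was 3779, 3635 and 3629 FPKM for Tyr-L cells and 3539, 4096 and 4139 FPKM for Tyr-H cells, so the groups overlapped in the total of this machinery. The sum over the 6 sensors, factors and regulators did not overlap, with 93.7 to 97.2 FPKM for Tyr-L cells and 126.7 to 140.3 FPKM for Tyr-H cells. The sum over the 11 tested ERAD genes did not overlap either, with 331.2 to 336.3 FPKM for Tyr-L cells and 363.1 to 429.8 FPKM for Tyr-H cells. That separation rested on Herpud1, with means of 23.6 and 76.1 FPKM. With Herpud1 left out, the ERAD sum of Tyr-H library 1 lay below that of every Tyr-L library. The sums over the 8 chaperones and partners (1006 to 1071 and 989.2 to 1274 FPKM) and over the 9 lectins, isomerases and oxidases (1761 to 1840 and 1668 to 1880 FPKM) overlapped. As a share of the library's total FPKM, the 9 lectins, isomerases and oxidases did not overlap. They made up 0.3931% to 0.4028% in Tyr-L and 0.3525% to 0.3899% in Tyr-H. For the 5 translocon genes the sums were 420.8 to 436.0 FPKM for Tyr-L cells and 392.1 to 415.9 FPKM for Tyr-H cells.

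The Tyr-H libraries differed among themselves more in these genes than the Tyr-L libraries did. The median coefficient of variation over the members was 3.21% in Tyr-L and 8.28% in Tyr-H, while over the 11026 genes whose mean reached 1 FPKM it was 4.63% and 5.23%. Tyr-H library 1 was the lowest of its group in 30 of the 39 members (76.9%), where it was lowest in 38.2% of all tested genes. Its median log2 distance from the group mean was −0.13 over the members and −0.01 over all genes. The genes in which it was not the lowest were Canx, Ern1, Atf6b, Os9, Edem2, Edem3, Sec61b, Sec61g and Ssr1. This was noticed in the values and not tested. Without Tyr-H library 1, the same 5 members passed the 2-fold criterion, and 19 rose and 9 fell by adjusted p.

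**Figure D3:**
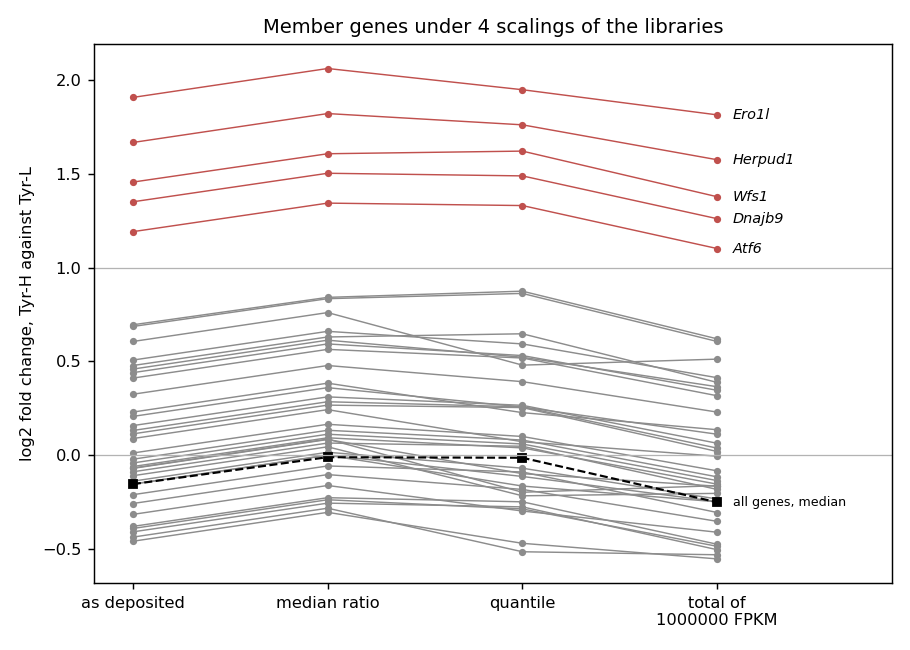
Log2 fold change of the 39 members, Tyr-H against Tyr-L, as deposited and under 3 other scalings of the libraries, 1 line for each gene. Red lines are the 5 genes called at 2-fold, which stay above 1 in all 4, and the dashed line is the median of all tested genes, which lies at −0.15, −0.01, −0.01 and −0.25.

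Other genes of the pathway, taken by their function, were read beside the members. In 5 further lists of ER folding, N-glycosylation, translocon, ERAD and stress-factor genes, 71 of 73 genes were tested: 14 rose, 31 fell and 26 did not pass, with a median log2 fold change of −0.10, beside 17.9% of all tested genes higher and 39.9% lower and their median of −0.15. None of them rose by 2-fold. Sec62 (−1.06), Sec61a2 (−1.04), Fkbp7 (−1.02) and Creb3l1 (−1.01) fell by 2-fold in the values as deposited. With median ratio scaling they stood at −0.91, −0.89, −0.88 and −0.90 in that order, and with quantile normalization at −0.92, −0.89, −0.83 and −0.77, so that none of the 4 fell by 2-fold under those scalings. A pseudocount of 1 FPKM left Sec62 alone past 2-fold, at −1.01, and Fkbp7 was at −0.96 without Tyr-H library 1 and without Tyr-L library 2. Sec62 is the partner of Sec63 at the channel, Sec61a2 a paralog of the channel subunit and Fkbp7 an ER prolyl isomerase. Creb3l1, which encodes the ER-bound factor OASIS, was at only 0.0740 to 0.459 FPKM, and its adjusted p was above 0.05 with quantile normalization and without Tyr-L library 2, Tyr-L library 3 or Tyr-H library 2. By list, 6 of 19 further ERAD genes rose and 6 fell, 4 of 14 N-glycosylation genes rose and 6 fell, 3 of 16 further folding enzymes rose and 8 fell, 1 of 12 further translocon genes rose and 7 fell, and of 10 tested ATF6 proteases, OASIS factors and IRE1 regulators none rose and 4 fell.

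The ATF4 and CHOP arm was the last list read. Of its 22 genes 21 were tested, Stc2 being unlisted, and 17 rose by 2-fold, 20 rose by adjusted p and 1 fell, with a median log2 fold change of 1.57. Like the others, this list was drawn up with earlier results of these data known. Ddit3, which encodes CHOP, stood at 21.2, 26.0 and 21.003 FPKM in Tyr-L and at 83.1, 114.5 and 124.9 FPKM in Tyr-H (log2 fold change 2.22, adjusted p = 2.1e-06). Its locus is overlapped by another annotated gene named Ddit3 on the same strand, and by Mars and Gm4189 on the other. Atf4 rose by a log2 fold change of 1.24 (adjusted p = 9.6e-07), from 124 to 144 FPKM in Tyr-L to 285 to 325 FPKM in Tyr-H. The largest rises were those of Trib3, a pseudokinase that restrains the arm (3.61), Nupr1, a small stress protein of the nucleus (3.14), Ppp1r15a, which encodes the eIF2 alpha phosphatase subunit GADD34 (3.09), Vldlr, a lipoprotein receptor (3.06), and Atf3 (2.67). Vldlr was at only 0.272 to 0.331 FPKM in Tyr-L, so its value depended on the pseudocount, and it was 1.71 with a pseudocount of 1 FPKM, below Chac1 and Ddit3. Chac1, which degrades glutathione, rose by 2.65, and Asns, the asparagine synthetase, by 1.85.

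Of the kinases at the head of the arm, PERK rose slightly and GCN2 fell. Eif2ak3, which encodes PERK, the ER sensor, stood at 8.60, 9.16 and 8.87 FPKM in Tyr-L and at 9.73, 10.6 and 9.54 FPKM in Tyr-H (log2 fold change 0.16, adjusted p = 0.046), a call lost in 9 of the 15 alternatives, among them the removal of any library other than Tyr-H library 3. Eif2ak4, which encodes GCN2, the sensor of amino acid shortage, fell from 7.72 to 8.42 FPKM in Tyr-L to 5.19 to 5.96 FPKM in Tyr-H (log2 fold change −0.51, adjusted p = 3.1e-04). RNA levels do not give the activity of either kinase. Set side by side, the members had a median log2 fold change of 0.09 with 5 of 39 risen by 2-fold, the other ER lists −0.10 with none of 71, and the ATF4 and CHOP arm 1.57 with 17 of 21. The difference between the lists was not tested.

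**Figure D4:**
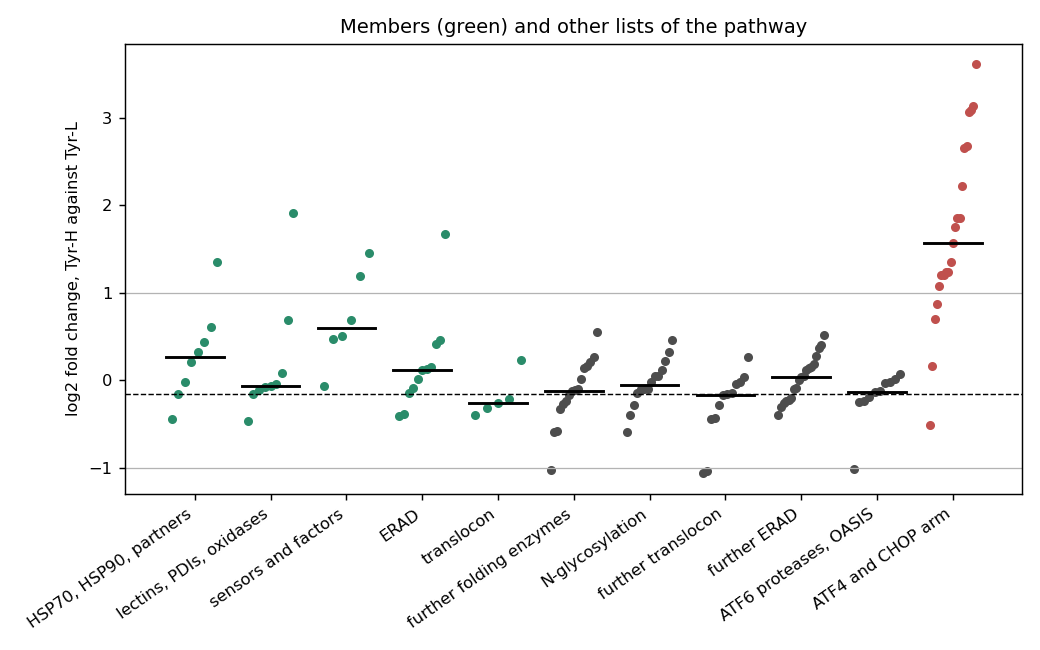
Log2 fold change of each tested gene, Tyr-H against Tyr-L, in the 5 groups of members (green), 5 other ER lists (grey) and the ATF4 and CHOP arm (red). Black bars are list medians, the dashed line is the median of all tested genes (−0.15), and grey lines mark 2-fold. The ATF4 and CHOP arm has its median at 1.57, above the highest median among the members' groups, 0.60 for the sensors and factors.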

How the data were processed

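The authors deposited FPKM values per gene for each library, made from mRNA libraries (VAHTS mRNA-seq v2) sequenced as read pairs (150 bp a read). The submitters' processing notes name Trimmomatic, HISAT, HISAT2 and GRCm38.p6. The quantifier, its annotation and its use of strand are not given in the sources used here, so reads of a gene and of one overlapping it on the other strand cannot be told apart. A gene unlisted in a library was taken as 0. Each library's group and number came from its title.

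FPKM values are not counts. The steps between the lowest values gave an estimate of depth, but only 26.6% to 31.0% of them lay within 0.1 of a whole fragment, so no count test was run. The estimate and the limit of 3 fragments cover counting error only. The test ran on log2(FPKM + 0.1) of 14336 genes that averaged 0.1 FPKM or more, with limma 3.58.1 in R 4.3.3 (all 6 libraries, no covariate, eBayes with a variance trend, Benjamini-Hochberg over all tested genes, two-sided), and fold changes are on that scale. A 2-fold call needs both an adjusted p no higher than 0.05 and a log2 fold change of 1 or more in either direction, the thresholds of the study's methods. The procedure was tested on simulated data. Replicates differed by a median of 0.0707 to 0.0855 in log2 within groups and 0.262 to 0.308 between them, so no library was a copy of another.

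The members and lists were chosen with earlier results of these data known. All members are named. Values per library are given for members called at 2-fold and for Hspa5, Hsp90b1, Calr, Pdia4, Sdf2l1, Xbp1, Ern1, Creld2, Manf and Hyou1. From the other lists the 5 largest rises and up to 5 largest falls among 2-fold calls are named, with Atf4, Ddit3, Trib3, Chac1, Asns, Eif2ak3 and Eif2ak4. Coordinates are from GENCODE M21 (GRCm38) and count from 1. Shared words are runs of 75 bases that another annotated transcript also holds. Promoter windows are from RefSeq. Protein sequences were not analysed here. Alternatives were pseudocounts of 0.01 and 1, no filter or a mean of at least 1 FPKM, 3 scalings, no variance trend, the replicate number as a block, and each library left out. Matching members by the listed symbol alone was added after seeing the data. Python 3.11.15 did the rest, using pandas 2.3.3, numpy 2.4.6, matplotlib 3.10.9 and scipy 1.17.1.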

Additional observations from a re-analysis of the deposited data

How the results depend on the processing

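The 5 members called at 2-fold were the same 5 in every alternative. Of the 824 log2 fold changes recomputed for single members and other named genes, 747 kept their direction and side of the threshold, 39 lost and 15 gained significance, and 23 changed sign. The members' median log2 fold change, 0.09, was 0.243 with median ratio scaling and −0.0051 with every library set to a total of 1000000 FPKM, and 0.113 to 0.268 above the median of all genes in every alternative. With median ratio scaling the sign changed for Dnajb11 (0.001), Dnajc3 (0.133), Calr (0.086), Canx (0.045), Pdia4 (0.084), Creld2 (0.112), Atf6b (0.093), Selk (0.065) and Vimp (0.016), and with quantile normalization for Dnajc3 (0.081), Creld2 (0.060), Atf6b (0.039) and Selk (0.048). Setting the total changed it for P4hb (−0.005) and Edem1 (−0.083). When single libraries were left out, the log2 fold change ran from −0.063 to 0.050 for Dnajc3, from −0.131 to 0.022 for Calr, from −0.138 to 0.040 for Pdia4, from −0.128 to 0.094 for Creld2, from −0.219 to 0.027 for Selk and from −0.017 to 0.066 for Edem1. Over all genes, 1254 were called at 2-fold as deposited, 388 with a pseudocount of 1 FPKM and 640 with a mean of at least 1 FPKM. The share of these calls that were higher was 33.9%, and 47.8%, 55.3%, 25.5% and 47.7% with median ratio scaling, quantile normalization, a set total and a pseudocount of 1.

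Libraries with the same replicate number deviated together no more than the other pairs did. Their correlations were 0.00904, 0.0342 and −0.173, beside −0.148 to 0.129 for pairs with unlike numbers. So few pairs cannot show whether libraries with the same number share a culture or a preparation. With that number as a block, 5 members were called at 2-fold, 16 rose and 9 fell by adjusted p, and 1258 genes were called in all. Depth and 3 libraries a group limit what can be seen: an adjusted p above 0.05 does not show that a member did not differ, and differences of the size of the shift of all genes, such as those of Canx, Pdia6 and Dnajb11, depend on the scaling. The cause of these changes was not tested.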
